A study of Homo sapiens with 8 samples.

Results

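Pladienolide B was compared with its solvent in PC3 cells, over all 17010 genes of the deposited count table and in 4 of the 8 RNA-seq libraries of the series. PC3 is an established human prostate cancer line. The cells were grown as 3D cultures in low-attachment EZ-BindShut plates, in DMEM with heat-inactivated fetal bovine serum. A pair of libraries came from cells given pladienolide B at 0.5 µM for 24 h, and a pair from cells given dimethyl sulfoxide (DMSO), for which the labels state no time. All libraries were made with a stranded kit that enriches polyadenylated RNA. The labels do not say that the replicates were separate cultures, so a p-value here sets a difference against the spread of a pair of libraries, and that spread may be technical.

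Pladienolide B is a macrolide made by a Streptomyces bacterium. It binds the SF3b complex in a pocket between SF3B1 and PHF5A. SF3b belongs to the U2 snRNP (small nuclear ribonucleoprotein) and holds the adenosine at the branch point of an intron. The drug stalls the assembly of the spliceosome. Introns are then retained or exons skipped, such RNA is often kept in the nucleus or destroyed, and genes without introns need no spliceosome for their mRNA.

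The libraries held 41504101 and 35461248 counts with pladienolide B and 53156845 and 72983584 with DMSO. The median gene had 227 and 223.5 counts with the drug against 950 and 1399.5 with DMSO, so with the drug fewer genes held more of the counts. Genes of ribosomal RNA took 7.002% and 7.30% of counts with the drug and 3.16% and 3.04% with DMSO. Between replicates the median absolute log2 ratio of a tested gene was 0.60 with the drug and 0.18 with DMSO. Levels are given in CPM, a gene's counts per 1000000 counts of the library scaled by TMM, which sets the libraries to a common level over most genes. The label of the cells was checked against their markers. The epithelial keratin genes KRT8 and KRT18 stood at 394 and 367 CPM and 373 and 318 CPM with DMSO, and HOXB13, a homeobox gene of the prostate lineage, at 125 and 122 CPM. Of 9 epithelial genes listed 8 were tested, with a summed level of 1385 and 1281 CPM with DMSO and 540 and 505 CPM with the drug. Of 13 prostate lineage and androgen-regulated genes listed 9 were tested, at a summed 232 and 231 CPM with DMSO and 465 and 192 CPM with the drug. By the test described below none of either list rose with the drug, and 4 fell in each. The genes of the androgen receptor and of the prostate-specific kallikreins were not analysed here. Of 16 genes that mark other cell types 5 were tested, and their summed level was 97.8 and 160.1 CPM with the drug against 156 and 168 CPM with DMSO.

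Pladienolide B moved most of the measured genes, in both directions about equally often, and most of those moved strongly. A gene is called here where edgeR's quasi-likelihood test gave an adjusted p under 0.05 over all genes tested. Of 16263 genes tested 9655 were called, which is 59.4% of them. The 4722 higher genes make 29.0% and the 4933 lower genes 30.3%, and these shares are the background for every list below. A change of at least 4-fold was seen in 5649 called genes. The authors' deposited table has 5323 genes higher and 6125 lower at the same adjusted p, and of the 9655 calls 9635 (99.8%) pass in the same direction in the authors' deposited table. With the libraries scaled by their totals alone the split was 2844 higher and 7597 lower, and the median of all genes on the log2 scale went from -0.08 to -0.99. Without DMSO replicate 1 the test called 3127 genes higher and 3419 lower, and without DMSO replicate 2 it called 3066 higher and 3257 lower.

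The largest increase at a mean of 20 CPM or more, among protein-coding genes that overlap no other annotated gene, was that of FGF18, a fibroblast growth factor gene on chromosome 5 (chr5:171419647-171457626, GRCh38). FGF18 stood at 278 and 194 CPM with pladienolide B and 0.853 and 0.904 CPM with DMSO, a log2 fold change of 8.06 ± 0.38 (standard error, adjusted p = 0.00132). It was close to silent with DMSO and abundant in both drug libraries. GNAQ, which encodes the alpha subunit of a G protein that activates phospholipase C, stood at 165 and 150.03 CPM with pladienolide B and 1.64 and 1.61 CPM with DMSO (6.60 ± 0.30, adjusted p = 0.00132). CIART, a repressor of the circadian clock, reached 1205 and 1251 CPM against 24.6 and 28.4 CPM with DMSO (5.53 ± 0.31, adjusted p = 0.00132). TSSC4, which takes part in the assembly of the U5 snRNP, stood at 1446 and 804 CPM with pladienolide B and 27.2 and 26.7 CPM with DMSO (5.38 ± 0.43, adjusted p = 0.00132). The other 6 of the 10 largest were CD14, TCTE3, NUAK2 and the zinc finger genes ZNF628, ZNF16 and ZBTB49, with log2 fold changes from 5.28 ± 0.44 for ZBTB49 to 5.88 ± 0.32 for CD14. CD14 is also a monocyte marker and stood at 46.1 and 46.9 CPM with pladienolide B and 0.867 and 0.708 CPM with DMSO, while CD68, another macrophage marker, stood at 23.6 and 50.5 CPM with pladienolide B and 84.5 and 74.2 CPM with DMSO and was not called.

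The largest decrease by the same rule was that of PLSCR1, a phospholipid scramblase gene induced by interferon, at 0.836 and 5.38 CPM with pladienolide B and 179 and 219 CPM with DMSO (-6.00 ± 0.93, adjusted p = 0.00428). DDX60, an interferon-induced helicase gene, stood at 1.74 and 3.55 CPM with pladienolide B and 130.3 and 161 CPM with DMSO (-5.78 ± 0.47, adjusted p = 0.00132). SLC2A10, a glucose transporter gene, had 0.453 and 1.79 CPM with the drug against 51.8 and 35.6 CPM (-5.29 ± 0.71, adjusted p = 0.00282). ETV1, an ETS transcription factor gene, stood at 0.488 and 2.67 CPM with pladienolide B and 62.8 and 55.5 CPM with DMSO (-5.23 ± 0.81, adjusted p = 0.00422). IFI44L, MX2, SLFN5, PARP12, CALB1 and EMP1 completed these 10, down to a log2 fold change of -4.84 ± 0.50 for EMP1, which encodes an epithelial membrane protein. In total 129 genes went from over 10 CPM with DMSO to under 1 CPM with the drug, 117 of them protein-coding, and 133 genes went from under 1 CPM to over 10 CPM, 39 of them protein-coding and 37 small nucleolar RNAs.

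Small nucleolar RNAs (snoRNAs) rose as a class. They guide the chemical modification of ribosomal RNA and most are cut out of the introns of host genes. Of 192 snoRNA genes tested 176 rose and none fell, with a median log2 fold change of 4.21. At an unadjusted p under 0.05 none of them was lower either. Their median DMSO level was only 0.184 CPM. A gene this low with DMSO could pass the filter on low counts through the drug libraries alone. A decrease from such a level could hardly be called, so the lack of lower snoRNAs says little. The 3 snoRNAs shown here are among those that rose the most and were silent with DMSO. SNORD32A, SNORD34 and SNORD35A lie in introns of RPL13A on chromosome 19, on the plus strand of GRCh38.
SNORD32A (chr19:49489965-49490048): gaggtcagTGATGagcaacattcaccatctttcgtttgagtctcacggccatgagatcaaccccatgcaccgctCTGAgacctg
SNORD34 (chr19:49490904-49490974): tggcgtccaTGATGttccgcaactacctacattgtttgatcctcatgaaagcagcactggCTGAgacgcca
SNORD35A (chr19:49491175-49491260): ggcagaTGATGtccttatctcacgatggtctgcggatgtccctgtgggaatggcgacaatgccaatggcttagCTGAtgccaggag
The capitals mark the C box core (TGATG) in the first 20 bases and the D box (CTGA) in the last 20 bases of these genes. Searched on the transcribed strand in the same windows, the pair of boxes was found in 80 of 95 tested SNORD genes with annotated ends (84.2%) and the ACA box (ACA) within the last 10 bases in 55 of 60 SNORA genes (91.7%).

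These snoRNA genes went from a fraction of a CPM to at least 117 CPM. SNORD33, also in RPL13A, stood at 292 and 134 CPM with pladienolide B and 0.349 and 0.275 CPM with DMSO (9.41 ± 0.61, adjusted p = 0.00132). SNORD34 had 250.3 and 117 CPM with the drug against 0.252 and 0.305 CPM (9.35 ± 0.60, adjusted p = 0.00132), and SNORD35A and SNORD32A changed by 8.75 ± 0.63 and 7.86 ± 0.43. The host rose far less. RPL13A stood at 6678 and 2646 CPM with pladienolide B and 1629.9 and 1216 CPM with DMSO (1.71 ± 0.52, adjusted p = 0.0366), and its call was lost in other settings (adjusted p = 0.201 with library-size scaling alone and 0.111 without DMSO replicate 2). All 4 snoRNAs of this host named here were higher in drug replicate 1 than in replicate 2, as RPL13A was.

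Across the 146 snoRNAs that lie inside a tested gene on the same strand, the median change was 4.42 for the snoRNA and 1.25 for its host, and 141 of them changed more than the host. Because the filter can keep a snoRNA on its drug counts alone, it favours large increases of snoRNAs in this comparison. The 83 hosts were 36 higher, 5 lower and 42 not called. NOP56, which encodes a core protein of the SNORD particles, hosts SNORD57. NOP56 stood at 1672 and 1397 CPM with pladienolide B and 155 and 151 CPM with DMSO (3.33 ± 0.29, adjusted p = 0.00134) and SNORD57 at 57.5 and 50.4 CPM with pladienolide B and 0.517 and 0.658 CPM with DMSO (6.51 ± 0.35, adjusted p = 0.00132). EIF4A2, a translation initiation helicase gene that holds 4 tested snoRNAs, had 1945 and 1682 CPM against 412 and 406 CPM (2.15 ± 0.28, adjusted p = 0.00246). In a list of 19 snoRNA host genes, most of them noncoding, 4 rose and 2 fell, SNHG17 (5.25 ± 0.36) and SNHG15 (3.44 ± 0.30) among the first. In this list 2 of 19 genes were lower in drug replicate 1 than in replicate 2, and the median log2 ratio of replicate 1 to replicate 2 was 0.76. For this host list the test called 7 higher without pladienolide B replicate 1, 13 higher without pladienolide B replicate 2, 5 lower without pladienolide B replicate 1 or with library-size scaling alone, 1 lower without DMSO replicate 1 and 0 lower without DMSO replicate 2. With all 8 libraries in 1 fit it called 8 higher. GAS5, a host RNA that nonsense-mediated decay degrades, stood at 37.5 and 33.4 CPM with pladienolide B and 37.9 and 36.1 CPM with DMSO (-0.06 ± 0.25, adjusted p = 0.842). A mature snoRNA has no poly(A) tail, and gene counts do not tell one from intron sequence of its host.

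Genes of miRNAs, small Cajal body RNAs and ribosomal RNAs also rose together. Of 81 miRNA genes 60 rose and 2 fell, with a median of 3.30, and the 68 inside a tested host had a median of 3.64 against 1.08 for the hosts. The median DMSO level of the miRNA genes was 0.125 CPM, so the limit set by the filter on low counts holds for them too. MIR6850 stood at 74.7 and 54.7 CPM with pladienolide B and 0.168 and 0.236 CPM with DMSO (8.29 ± 0.42, adjusted p = 0.00132), and again the count covers the locus, not the mature miRNA. All 8 genes of small Cajal body RNAs (SCARNA) rose, led by SCARNA12 at 122 and 138 CPM with pladienolide B and 2.50 and 1.96 CPM with DMSO (5.87 ± 0.32, adjusted p = 0.00132). Their median DMSO level was 0.104 CPM, with the same limit. RN7SK, the noncoding RNA that holds the elongation factor P-TEFb inactive, stood at 56.3 and 48.3 CPM with pladienolide B and 7.38 and 8.75 CPM with DMSO (2.70 ± 0.28, adjusted p = 0.00153). Every one of 12 ribosomal RNA genes rose. The mitochondrial 12S RNA gene RNR1 stood at 3116 and 6489.6 CPM with pladienolide B and 816 and 756 CPM with DMSO (2.61 ± 0.46, adjusted p = 0.00599). Among long noncoding RNAs 601 of 1803 rose and 346 fell, and NORAD, which has 1 exon, reached 7253 and 7520.4 CPM against 605 and 507 CPM (3.73 ± 0.34, adjusted p = 0.00137). NEAT1, the scaffold of paraspeckles, stood at 1482 and 1540.2 CPM with pladienolide B and 2172 and 2569.6 CPM with DMSO (-0.65 ± 0.29, adjusted p = 0.0994). Reads of near-identical copies of ribosomal RNA genes can be split between them.

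**Figure D1:**
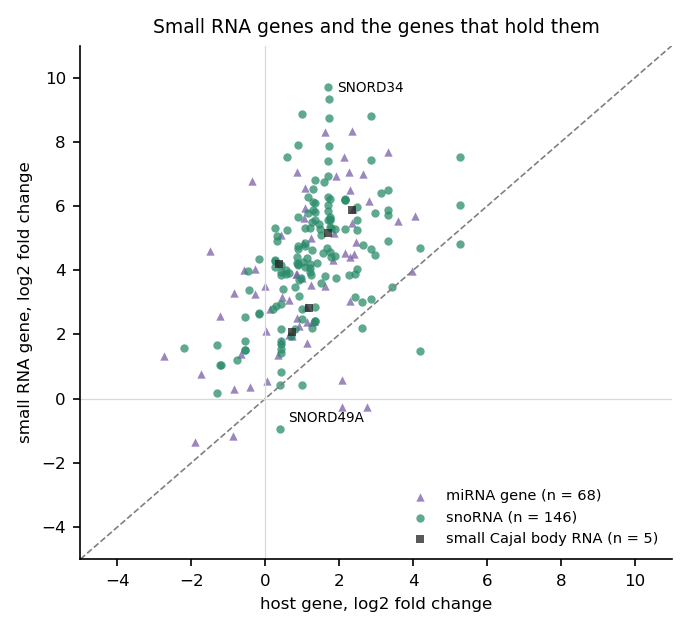
Log2 fold change with pladienolide B of each small RNA gene (y axis) against that of the gene on the same strand that holds it (x axis), from the same fit. Points above the dashed line changed more than their host, as 141 of 146 snoRNAs, 64 of 68 miRNA genes and 5 of 5 small Cajal body RNAs did. Small RNA genes low with DMSO could pass the filter on their drug counts alone, which favours points above the line.

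Protein-coding genes moved down a gradient of exon number, from mostly higher in genes with 1 exon to mostly lower in genes with many. Of 343 genes with 1 exon 209 rose and 20 fell, with a median log2 fold change of 1.58, while of 12503 genes with introns 25.2% rose and 35.1% fell, with a median of -0.37. The difference of these medians was 1.95, and it ran from 1.83 to 2.19 over the 4 fits that leave out 1 library and from 1.94 to 2.12 over 4 other scalings and filters. The median was 1.09 for 2 exons, 0.46 for 3, 0.17 for 4 to 5, -0.28 for 6 to 10, -0.72 for 11 to 20 and -0.99 for over 20 exons. Among genes with over 20 exons 213 of 1745 rose and 814 fell. Both drug libraries showed the gradient, from 1.74 to -1.28 in replicate 1 and from 1.52 to -0.85 in replicate 2 against the mean DMSO level, and neither DMSO library moved from 0 by more than 0.04. Exon number was taken from the canonical transcript of GENCODE, and genes are not replicates, so these medians carry no test.

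**Figure D2:**
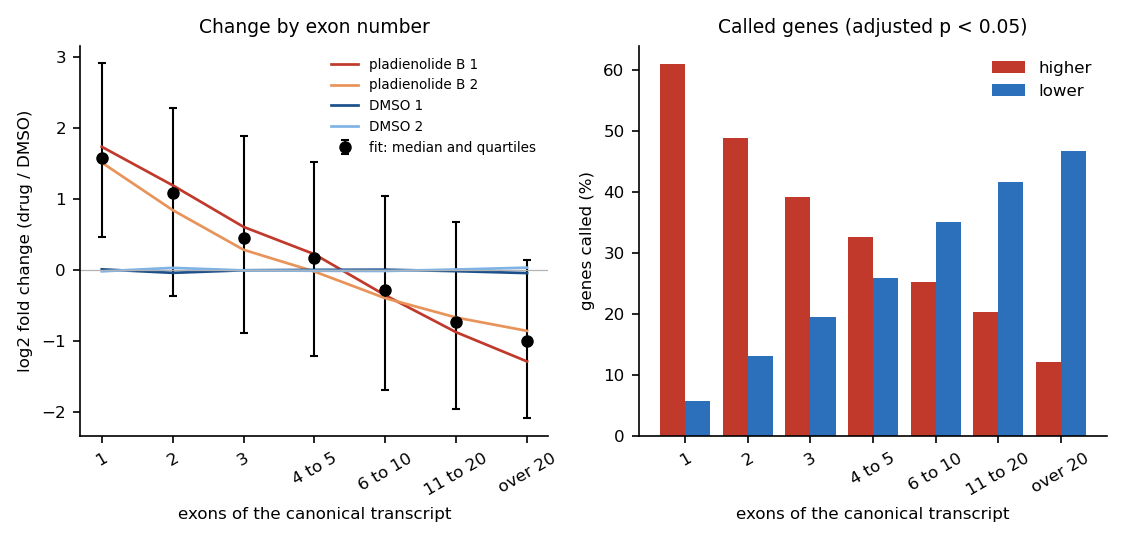
Left, median log2 fold change of protein-coding genes by exon number (x axis), as points with quartiles from the fit and as lines for each library against the mean DMSO level. Right, the share of genes called higher and lower in each class, from 60.9% higher and 5.83% lower with 1 exon to 12.2% higher and 46.6% lower with over 20 exons.

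Total intron length went with the change as exon number did. Among genes with introns the fifth with the shortest total (76 to 6638 bases) had a median of 0.56, and the fifth with the longest (79294 bases or more) had a median of -1.19, with 51.9% of its genes lower. Within classes of total intron length the medians still went down with exon number, except at the end of the middle class. These classes were wide, from 76 to 12613 bases in the short one and from 44201 to 2294744 in the long one. Intron length was therefore not held constant within them. In the class with short introns, one of 3 classes of equal size, the median went from 1.18 for 2 exons to -0.23 for over 20. Within the class with long introns it went from 0.30 to -1.21. Within the class with middle introns it went from 0.77 for 2 exons to -0.57 for 11 to 20 and was -0.42 for over 20. Genes of 6 to 10 exons had medians of 0.12, -0.32 and -0.93 in the classes of short, middle and long introns. The contrast was present at every DMSO level. With genes split into 4 classes by DMSO level, those with 1 exon had a median of 1.4 to 2.33 and genes with several exons one of -0.67 to -0.18.

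Pairs of related genes, one without introns and one with them, showed the same order. These pairs were chosen after the gradient had been seen. In 9 pairs the annotated intronless gene rose in all and was above its relative in all, while the relative rose in 3 and fell in 2. PCBP1 and PCBP2 encode poly(C)-binding proteins. PCBP1, with 1 exon, stood at 5679 and 3118 CPM with pladienolide B and 219 and 236 CPM with DMSO (4.27 ± 0.44, adjusted p = 0.00158), and PCBP2, with 15 exons, at 115 and 126 CPM with pladienolide B and 435 and 351 CPM with DMSO (-1.70 ± 0.26, adjusted p = 0.00366). The groups did not overlap for either gene, and the pair moved in opposite directions. CSTF2T and CSTF2 encode forms of a subunit of the cleavage stimulation factor. CSTF2T changed by 3.17 ± 0.24 and CSTF2, with 14 exons, by -0.57 ± 0.26 (adjusted p = 0.106). KLHL9 and KLHL13, adaptors of a ubiquitin ligase of mitosis, changed by 2.84 ± 0.27 and -1.35 ± 0.42, the call of KLHL13 lost without a DMSO library (adjusted p = 0.126 without DMSO replicate 1 and 0.384 without DMSO replicate 2). TAF7, a subunit of TFIID, changed by 4.51 ± 0.34 and its relative TAF7L by 0.58 ± 0.59 (adjusted p = 0.426). In 4 further pairs the annotated retrocopy had 2 or 3 exons, and UTP14C and RPL36AL were above their relatives while RBMXL1 and FAM50B were below.

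Most genes in the lists of splicing factors rose, although nearly all of them have introns. The first list holds the U2 snRNP, which contains the target of the drug, and further splicing factors such as U2AF1, U2AF2, SF1 and PUF60. In it 16 of 20 genes rose and 2 fell, their median 2.04 above all genes. SF3B1 and PHF5A form the pocket that binds the drug. SF3B1 stood at 483 and 821 CPM with pladienolide B and 275 and 281 CPM with DMSO (1.23 ± 0.34, adjusted p = 0.0266), a call that was lost in other settings (adjusted p = 0.458 with library-size scaling alone, 0.15 without DMSO replicate 1 and 0.14 without DMSO replicate 2). PHF5A stood at 96.2 and 64.1 CPM with pladienolide B and 17.98 and 17.2 CPM with DMSO (2.19 ± 0.31, adjusted p = 0.00331). U2AF2, which binds the polypyrimidine tract before the 3′ splice site, rose from 249 and 245 CPM to 2385 and 3352 CPM (3.54 ± 0.34, adjusted p = 0.00141), and SF3B4 from 65.9 and 56.3 CPM to 529 and 627 CPM (3.24 ± 0.28, adjusted p = 0.00132). Of the other core spliceosome genes 20 of 30 rose and 2 fell, a median 1.76 above all genes. PRPF8, at the heart of the U5 snRNP and with 43 exons, stood at 1354 and 1880.2 CPM with pladienolide B and 181 and 175 CPM with DMSO (3.18 ± 0.32, adjusted p = 0.00147). BCAS2, of the Prp19 complex, fell from 37.5 and 34.3 CPM to 8.36 and 9.92 CPM (-1.97 ± 0.27, adjusted p = 0.00286), and EFTUD2, the GTPase of the U5 snRNP, fell by 1.74 on the log2 scale. Relative to genes of the same exon class the U2 and core lists had medians of 2.25 and 2.23. For U2 genes the test called 0 lower without DMSO replicate 1. For core spliceosome genes the test called 13 higher with library-size scaling alone and 4 lower without pladienolide B replicate 1 or 2 or with library-size scaling alone.

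SR proteins, which bind exons and recruit the spliceosome, rose in 11 of 13 genes, with none lower and a median 2.25 above all genes. SRSF1 stood at 2005 and 2299.9 CPM with pladienolide B and 207 and 215 CPM with DMSO (3.35 ± 0.29, adjusted p = 0.00134) and SRSF3 at 751 and 1243 CPM with pladienolide B and 119 and 136 CPM with DMSO (2.96 ± 0.36, adjusted p = 0.00221). The groups did not overlap for either gene. At an unadjusted p under 0.05 no SR gene was lower by edgeR, and DESeq2 called none lower. Kinases that phosphorylate SR proteins were 6 of 10 higher and none lower. DYRK1A stood at 1263 and 1016 CPM with pladienolide B and 84.6 and 89.9 CPM with DMSO (3.71 ± 0.30, adjusted p = 0.00132) and CLK3 at 393 and 356 CPM with pladienolide B and 47.9 and 56.8 CPM with DMSO (2.84 ± 0.26, adjusted p = 0.00136). Among hnRNP genes, whose proteins coat pre-mRNA, 16 of 26 rose and PCBP2 alone fell. HNRNPA0, which has 1 exon, was the highest of them, at 4992 and 2517 CPM with pladienolide B and 157 and 138 CPM with DMSO (4.67 ± 0.48, adjusted p = 0.00156). HNRNPC, with 9 exons, stood at 2625 and 2323 CPM with pladienolide B and 329 and 326 CPM with DMSO (2.92 ± 0.29, adjusted p = 0.00146). For the SR kinases the test called 3 higher without DMSO replicate 1 or with library-size scaling alone and 1 lower without pladienolide B replicate 1 or 2 or with library-size scaling alone. For hnRNP genes the test called 4 lower without pladienolide B replicate 1, 6 lower without pladienolide B replicate 2 and 8 lower with library-size scaling alone. For SR genes the test called 1 lower without pladienolide B replicate 2 or with library-size scaling alone.

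Genes of the steps after splicing split more evenly. For the exon junction complex and mRNA export 10 of 18 rose and 3 fell. ALYREF, an adaptor that loads mRNA on the export receptor, stood at 731 and 406 CPM with pladienolide B and 20.7 and 19.6 CPM with DMSO (4.82 ± 0.41, adjusted p = 0.00132), and NXF1, the receptor itself, at 435 and 596 CPM with pladienolide B and 94.03 and 80.9 CPM with DMSO (2.56 ± 0.29, adjusted p = 0.00191). THOC7, of the THO complex, fell from 16.6 and 16.5 CPM to 2.54 and 3.59 CPM (-2.44 ± 0.33, adjusted p = 0.00277). The factors of nonsense-mediated decay, which destroys mRNA with an early stop codon, were 3 of 10 higher and 1 lower. SMG8 stood at 679 and 732 CPM with pladienolide B and 42.2 and 37.8 CPM with DMSO (4.14 ± 0.27, adjusted p = 0.00132). The RNA exosome, which degrades RNA from its 3′ end, had 4 of 15 genes higher and 4 lower. EXOSC6, with 1 exon, changed by 3.97 ± 0.26 and EXOSC7, with 8, by -2.66 ± 0.38. Cleavage and polyadenylation genes were 6 of 19 higher and 4 lower. PCF11, which releases polymerase at gene ends, stood at 985 and 569.8 CPM with pladienolide B and 38.5 and 43.8 CPM with DMSO (4.24 ± 0.39, adjusted p = 0.00139), and the nuclease gene CPSF3 fell from 24.96 and 25.7 CPM to 5.43 and 4.87 CPM (-2.30 ± 0.28, adjusted p = 0.00209). For junction complex and export genes the test called 6 higher without DMSO replicate 2, 5 higher with library-size scaling alone, 5 lower without pladienolide B replicate 1 or with library-size scaling alone, 6 lower without pladienolide B replicate 2 and 1 lower without DMSO replicate 1 or 2. For decay factors the test called 1 higher with library-size scaling alone, 2 lower without pladienolide B replicate 1, 3 lower without pladienolide B replicate 2, 0 lower without DMSO replicate 1 or 2 and 4 lower with library-size scaling alone. For exosome genes the test called 7 higher without pladienolide B replicate 1, 2 higher without DMSO replicate 2 or with library-size scaling alone, 7 lower without pladienolide B replicate 2 and 2 lower without DMSO replicate 1 or 2. For cleavage and polyadenylation genes the test called 10 higher without pladienolide B replicate 1, 7 lower without pladienolide B replicate 1 or 2 and 1 lower without DMSO replicate 1 or 2.

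Control of transcript elongation was among the lists with the highest share of higher genes, 17 of 27, with 4 lower and a median 2.14 above all genes. HEXIM1 encodes the inhibitor that 7SK RNA holds on P-TEFb. It stood at 1329 and 1056 CPM with pladienolide B and 88.6 and 93.4 CPM with DMSO (3.71 ± 0.30, adjusted p = 0.00132). The cyclin T genes of P-TEFb itself also rose. CCNT1 stood at 466 and 1092 CPM with pladienolide B and 54.5 and 53.6 CPM with DMSO (3.85 ± 0.49, adjusted p = 0.00249) and CCNT2 at 233 and 338 CPM with pladienolide B and 32.8 and 33.5 CPM with DMSO (3.11 ± 0.30, adjusted p = 0.00144). CDK12, a kinase of elongating polymerase, changed by 3.35 ± 0.36. AFF1 and ELL2, of the super elongation complex, fell by 2.87 and 2.23 on the log2 scale, AFF1 from 27.7 and 36.7 CPM to 3.73 and 5.09 CPM (adjusted p = 0.00205) and ELL2 from 81.7 and 119.7 CPM to 15.3 and 27.5 CPM (adjusted p = 0.00669). For elongation genes the test called 7 lower without pladienolide B replicate 2 and 2 lower without DMSO replicate 1 or 2.

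Early response transcription factors rose. AP-1 is a dimer of FOS and JUN family proteins that stress and growth signals induce within minutes in many cells. Of 11 genes of AP-1 and ATF3 9 rose and none fell, a median 2.45 above all genes and 1.39 above genes of the same exon class. At an unadjusted p under 0.05 edgeR gave none as lower, nor did DESeq2 call any lower. The promoters of FOS and JUN are printed because both genes moved together and hold a motif of the 4 searched, shown in capitals. They run from 250 bases before to 50 bases after the start, are taken from RefSeq (GRCh38.p14) and are given in the direction of transcription. For AP-1 genes the test called 1 lower with library-size scaling alone.
FOS (chr14:75278578-75278877, plus strand): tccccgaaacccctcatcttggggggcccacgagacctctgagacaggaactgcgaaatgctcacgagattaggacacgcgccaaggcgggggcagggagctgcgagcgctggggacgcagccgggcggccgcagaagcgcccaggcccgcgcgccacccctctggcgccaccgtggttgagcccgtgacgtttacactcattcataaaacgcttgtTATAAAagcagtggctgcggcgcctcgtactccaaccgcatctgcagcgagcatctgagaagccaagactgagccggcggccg
JUN (chr1:58783998-58784297, minus strand): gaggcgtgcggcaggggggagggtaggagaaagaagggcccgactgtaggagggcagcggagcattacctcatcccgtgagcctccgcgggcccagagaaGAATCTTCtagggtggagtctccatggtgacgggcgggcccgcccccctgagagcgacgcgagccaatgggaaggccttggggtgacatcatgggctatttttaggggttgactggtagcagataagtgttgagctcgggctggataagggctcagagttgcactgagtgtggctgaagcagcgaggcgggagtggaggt
The capitals match the letters of a TATA box (TATAAA), 33 bases before the start of FOS, and of a heat shock element (GAANNTTC), 150 bases before that of JUN. Each distance is to the first base of the match, and whether either match acts as a site was not tested. The AP-1 site (TGANTCA) and the CRE (TGACGTCA) were searched too, on both strands like the others, and these letters occur in neither window. No motif was found in the windows of ATF3 and EGR1. Only exact letters counted, so the search does not show that such sites are absent. The windows of JUN and ATF3 hold TGACATCA and that of FOS holds TGACGTTT, variants close to the CRE that were not searched. Of all 27305 RefSeq promoters 11.95% held the TATA box, 6.87% the heat shock element, 7.76% the AP-1 site and 1.98% the CRE. Among tested protein-coding genes with a promoter, the TATA box was in 6.66% of those higher, 4.78% of those lower and 6.42% of those not called. In the same order the heat shock element was in 5.06%, 4.39% and 4.38%, the AP-1 site in 3.85%, 4.72% and 4.81%, and the CRE in 3.74%, 2.62% and 3.29%.

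JUN stood at 2664 and 1329 CPM with pladienolide B and 134 and 167 CPM with DMSO (3.73 ± 0.46, adjusted p = 0.00226), high in both drug libraries. FOS stood at 76.8 and 37.1 CPM with pladienolide B and 3.77 and 8.11 CPM with DMSO (3.26 ± 0.57, adjusted p = 0.00592), and its call was lost without 1 library (adjusted p = 0.0542 without pladienolide B replicate 1). FOSB had 61.4 and 19.4 CPM against 1.83 and 1.66 CPM (4.53 ± 0.65, adjusted p = 0.00334). ATF3, a stress-induced repressor of the same class, stood at 455 and 461 CPM with pladienolide B and 29.97 and 34.9 CPM with DMSO (3.82 ± 0.26, adjusted p = 0.00132). JUN, FOS and FOSB were each higher in drug replicate 1 than in replicate 2, and ATF3 was level. Of the other immediate early genes 17 of 25 rose and 1 fell, a median 1.90 above all genes and 1.28 above genes of the same exon class. EGR1, a zinc finger factor, was low in all libraries, at 23.5 and 6.41 CPM with pladienolide B and 0.629 and 0.462 CPM with DMSO (4.78 ± 0.75, adjusted p = 0.00447), so its RNA was scarce even where it was highest. GADD45B, an activator of p38 signalling, stood at 709 and 456 CPM with pladienolide B and 20.2 and 24.2 CPM with DMSO (4.71 ± 0.36, adjusted p = 0.00132). Phosphatases that switch MAP kinases off were 5 of 10 higher and 1 lower. DUSP7 changed by 2.44 ± 0.29 and DUSP2 by 2.41 ± 0.38. For immediate early genes the test called 10 higher without DMSO replicate 1, 11 higher with library-size scaling alone, 2 lower without pladienolide B replicate 1 and 0 lower without DMSO replicate 2. For the phosphatases the test called 2 higher without DMSO replicate 1 or with library-size scaling alone, 2 lower without pladienolide B replicate 1 or with library-size scaling alone and 0 lower without DMSO replicate 1 or 2.

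Targets of NF-kB, the transcription factor of inflammatory signals, were 11 of 30 higher and 2 lower, a median 0.87 above all genes. IL6, an inflammatory cytokine, stood at 33.4 and 57.5 CPM with pladienolide B and 1.36 and 1.60 CPM with DMSO (4.94 ± 0.41, adjusted p = 0.00132). The feedback inhibitors rose as well: TNFAIP3 stood at 238 and 368 CPM with pladienolide B and 13.5 and 27.5 CPM with DMSO (3.88 ± 0.48, adjusted p = 0.00228) and NFKBIA at 496 and 783 CPM with pladienolide B and 64.1 and 86.2 CPM with DMSO (3.09 ± 0.36, adjusted p = 0.00205). CXCL8, a neutrophil chemokine, had 72.5 and 239 CPM against 10.6 and 21.4 CPM (3.28 ± 0.70, adjusted p = 0.0114), with the call lost without 1 library (adjusted p = 0.0744 without pladienolide B replicate 2). IL1B went the other way, at 0.731 and 1.03 CPM with pladienolide B and 11.8 and 13.01 CPM with DMSO (-3.82 ± 0.37, adjusted p = 0.00142). For NF-kB targets the test called 18 higher without pladienolide B replicate 1, 4 lower without pladienolide B replicate 1, 9 lower without pladienolide B replicate 2, 1 lower without DMSO replicate 2 and 6 lower with library-size scaling alone.

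**Figure D3:**
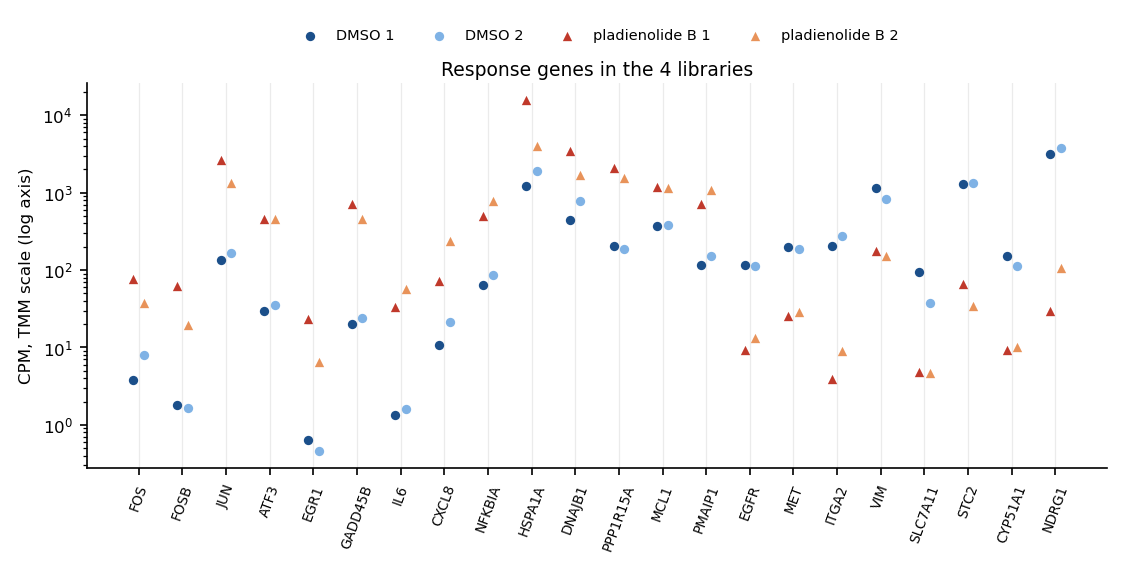
Levels of the response genes named in the text, and of the HSP40 gene DNAJB1, in the 4 libraries, in CPM on a log axis. Triangles are the pladienolide B libraries and circles the DMSO libraries, and for each of these 22 genes the pairs do not overlap. Those named in the text were picked among called genes, where separate pairs are usual, and no share over all genes is given.

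In the list of heat shock and chaperone genes, most of them cytosolic, the level rose in 14 of 24 genes and fell in 2, a median 1.3 above all genes. HSPA1A, the inducible HSP70 with 1 exon, stood at 15680.1 and 4039 CPM with pladienolide B and 1210.03 and 1906 CPM with DMSO (2.66 ± 0.73, adjusted p = 0.0259), and its near-identical copy HSPA1B at 16489 and 4091 CPM with pladienolide B and 1191 and 1847 CPM with DMSO (2.76 ± 0.74, adjusted p = 0.0246). How reads were split between these copies is uncertain. Both were far higher in drug replicate 1 than in replicate 2, and both calls were lost with library-size scaling alone (HSPA1A, adjusted p = 0.0709 with library-size scaling alone, and HSPA1B, adjusted p = 0.0641 with library-size scaling alone). STIP1, which hands clients from HSP70 to HSP90, stood at 813 and 729 CPM with pladienolide B and 167 and 201 CPM with DMSO (2.07 ± 0.27, adjusted p = 0.00245). HSPE1, the mitochondrial co-chaperonin, fell from 53.5 and 68.2 CPM to 21.004 and 11.1 CPM (-1.92 ± 0.40, adjusted p = 0.0102). In the endoplasmic reticulum list only 1 of 22 genes rose, the co-chaperone gene DNAJB9 (2.63 ± 0.44, adjusted p = 0.00522), and 3 fell. HSPA5, the main chaperone there, stood at 5210.1 and 2472 CPM with pladienolide B and 2131 and 1072 CPM with DMSO (1.26 ± 0.53, adjusted p = 0.0912). For HSPA5 and DNAJB9 the DMSO libraries lay further apart than for most genes. For the heat shock and chaperone list the test called 8 higher without DMSO replicate 1, 9 higher without DMSO replicate 2, 4 higher with library-size scaling alone, 1 lower without DMSO replicate 2 and 4 lower with library-size scaling alone. For the endoplasmic reticulum list the test called 2 higher without pladienolide B replicate 2 or without DMSO replicate 1, 5 lower without pladienolide B replicate 2, 0 lower without DMSO replicate 1 and 10 lower with library-size scaling alone.

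Members of the ATF4 list moved both ways. ATF4, the transcription factor of the integrated stress response, stood at 4298 and 2015 CPM with pladienolide B and 411 and 299 CPM with DMSO (3.15 ± 0.49, adjusted p = 0.00422), and PPP1R15A, which ends that response by dephosphorylating eIF2, at 2093 and 1546 CPM with pladienolide B and 206 and 187 CPM with DMSO (3.21 ± 0.32, adjusted p = 0.00146). Of the 22 genes of the ATF4 list 4 rose and 10 fell, a median -1.0 from all genes. STC2, a secreted glycoprotein gene, stood at 65.2 and 34.5 CPM with pladienolide B and 1304 and 1325 CPM with DMSO (-4.72 ± 0.44, adjusted p = 0.0014). SLC7A11, the cystine transporter, had 4.77 and 4.65 CPM against 95.2 and 37.7 CPM (-3.82 ± 0.53, adjusted p = 0.0031), with the call lost without either drug library (adjusted p = 0.202 without pladienolide B replicate 1 and 0.176 without pladienolide B replicate 2). XPOT, the exporter of transfer RNA, stood at 15.3 and 16.2 CPM with pladienolide B and 191 and 141 CPM with DMSO (-3.40 ± 0.29, adjusted p = 0.00132). Of the aminoacyl-tRNA synthetases, which charge transfer RNA, none of 20 rose and 12 fell, a median -1.11 from all genes. Relative to genes of the same exon class the synthetases had a median of -0.45. At an unadjusted p under 0.05 edgeR gave 1 of them as higher, and DESeq2 called none higher. GARS1, the glycyl-tRNA synthetase gene, stood at 23.5 and 16.8 CPM with pladienolide B and 228 and 146 CPM with DMSO (-3.22 ± 0.36, adjusted p = 0.00189). Members of the ATF4 list that rose had a median of 3 exons and those that fell 9.5. The DMSO libraries also lay apart in the ATF4 list, with a median absolute log2 ratio between them of 0.76 against 0.18 over all genes. For the ATF4 list the test called 7 higher without pladienolide B replicate 2, 5 lower without pladienolide B replicate 1 and 6 lower without pladienolide B replicate 2. For the synthetases the test called 2 higher without pladienolide B replicate 1 and 1 higher without pladienolide B replicate 2.

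In the BCL2 family, which decides on the release of cytochrome c from mitochondria, 8 of 16 genes rose and 5 fell. Genes of both kinds rose. MCL1, an inhibitor of cell death and a known target of splicing drugs, stood at 1171 and 1159.7 CPM with pladienolide B and 372 and 388 CPM with DMSO (1.62 ± 0.26, adjusted p = 0.0044), a call lost in other settings (adjusted p = 0.063 with library-size scaling alone, 0.0658 without DMSO replicate 1 and 0.0573 without DMSO replicate 2), and a gene count does not separate its long and short forms. BCL2L1 stood at 586 and 571 CPM with pladienolide B and 237 and 204 CPM with DMSO (1.39 ± 0.25, adjusted p = 0.00623), and its call was lost likewise (adjusted p = 0.145 with library-size scaling alone, 0.0702 without DMSO replicate 1 and 0.123 without DMSO replicate 2). PMAIP1, a sensitiser to cell death also called NOXA, stood at 712 and 1069.8 CPM with pladienolide B and 117 and 154 CPM with DMSO (2.72 ± 0.34, adjusted p = 0.00244). BCL2L11, an activator of cell death also called BIM, stood at 122 and 98.3 CPM with pladienolide B and 23.9 and 26.6 CPM with DMSO (2.12 ± 0.27, adjusted p = 0.00227). BIK and BOK fell by 2.82 and 2.72 on the log2 scale (adjusted p = 0.00472 and adjusted p = 0.00199). Among caspases, their inhibitors and death receptors 5 of 19 rose and 7 fell. BIRC2, an inhibitor of cell death, fell from 35.4 and 41.97 CPM to 4.18 and 6.26 CPM (-2.89 ± 0.34, adjusted p = 0.00202). PC3 cells are known to lack functional p53. Of 24 p53 target genes 4 rose and 6 fell. PPM1D changed by 3.02 ± 0.36 and PLK2 by 2.76 ± 0.41, while CDKN1A, the inhibitor p21, stood at 30.8 and 12.01 CPM with pladienolide B and 54.5 and 42.5 CPM with DMSO (-1.18 ± 0.49, adjusted p = 0.0883). For the BCL2 family the test called 3 higher without DMSO replicate 1 or 2 or with library-size scaling alone and 2 lower without DMSO replicate 1 or 2. For the caspase list the test called 3 higher without DMSO replicate 1 or 2, 2 higher with library-size scaling alone and 11 lower with library-size scaling alone. For p53 targets the test called 11 higher without pladienolide B replicate 1, 2 higher without DMSO replicate 2 or with library-size scaling alone, 11 lower without pladienolide B replicate 2 or with library-size scaling alone and 3 lower without DMSO replicate 1.

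Cell cycle genes moved both ways. In G1 control 7 of 24 rose and 9 fell. CCND1, cyclin D1, fell from 257 and 287 CPM to 105 and 68.4 CPM (-1.65 ± 0.30, adjusted p = 0.007), E2F7 from 22.4 and 18.97 CPM to 0.697 and 1.98 CPM (-3.95 ± 0.56, adjusted p = 0.00331), and the inhibitor gene CDKN1B rose from 44.3 and 54.3 CPM to 167 and 182 CPM (1.82 ± 0.25, adjusted p = 0.00288). For DNA replication 6 of 40 rose and 16 fell. FEN1, the flap nuclease, with 2 exons, stood at 374 and 165 CPM with pladienolide B and 17.2 and 17.6 CPM with DMSO (3.95 ± 0.47, adjusted p = 0.00215). POLA2, a subunit of the priming polymerase with 18 exons, stood at 0.522 and 0.293 CPM with pladienolide B and 7.14 and 8.59 CPM with DMSO (-4.26 ± 0.46, adjusted p = 0.00169), and RFC4, of the clamp loader, at 1.36 and 1.32 CPM with pladienolide B and 12.2 and 13.8 CPM with DMSO (-3.28 ± 0.33, adjusted p = 0.00146). Among genes of mitosis 4 of 36 rose and 8 fell. CCNB1, cyclin B1, stood at 81.1 and 71.4 CPM with pladienolide B and 12.7 and 17.1 CPM with DMSO (2.35 ± 0.29, adjusted p = 0.00222), and ECT2, an exchange factor of cytokinesis, at 3.07 and 2.27 CPM with pladienolide B and 23.4 and 33.1 CPM with DMSO (-3.40 ± 0.36, adjusted p = 0.00167). In homologous recombination 3 of 27 rose and 11 fell. FANCL, the ligase of the Fanconi complex, stood at 0.0697 and 0.293 CPM with pladienolide B and 3.05 and 5.42 CPM with DMSO (-4.54 ± 0.73, adjusted p = 0.00477), and RBBP8, which starts the resection of DNA ends, at 4.08 and 4.32 CPM with pladienolide B and 29.8 and 29.6 CPM with DMSO (-2.82 ± 0.28, adjusted p = 0.00143). Intronless histone genes rose in 12 of 25 and fell in 2. Their median, relative to other genes with 1 exon, was -0.62. H2AX, whose RNA can also end in a poly(A) tail, stood at 741 and 585 CPM with pladienolide B and 37.95 and 32.1 CPM with DMSO (4.24 ± 0.30, adjusted p = 0.00132), and H2BC4 fell from 65.1 and 66.1 CPM to 6.58 and 5.67 CPM (-3.42 ± 0.28, adjusted p = 0.00132). For G1 genes the test called 4 higher without DMSO replicate 1 or 2 and 3 higher with library-size scaling alone. For replication genes the test called 2 higher without DMSO replicate 1 or with library-size scaling alone, 25 lower without pladienolide B replicate 1, 9 lower without DMSO replicate 1, 8 lower without DMSO replicate 2 and 26 lower with library-size scaling alone. For mitosis genes the test called 8 higher without pladienolide B replicate 2, 14 lower without pladienolide B replicate 1, 2 lower without DMSO replicate 2 and 18 lower with library-size scaling alone. For recombination genes the test called 5 higher without pladienolide B replicate 1, 6 higher without pladienolide B replicate 2, 1 higher without DMSO replicate 1 or 2 or with library-size scaling alone, 6 lower without DMSO replicate 1 and 4 lower without DMSO replicate 2. For histone genes the test called 6 higher without DMSO replicate 1 or 2, 5 higher with library-size scaling alone and 5 lower without pladienolide B replicate 2 or with library-size scaling alone.

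Metabolic genes fell in many of their lists' members. Of 34 genes of sterol and fatty acid synthesis 25 fell and 4 rose, a median -1.60 from all genes. CYP51A1, the lanosterol demethylase, stood at 9.27 and 10.3 CPM with pladienolide B and 152 and 114 CPM with DMSO (-3.77 ± 0.30, adjusted p = 0.00132), and FADS1, a fatty acid desaturase, at 8.36 and 17.2 CPM with pladienolide B and 181 and 154 CPM with DMSO (-3.71 ± 0.44, adjusted p = 0.00207). SREBF1, the transcription factor of lipid synthesis, had 5.78 and 16.6 CPM against 162 and 132 CPM (-3.71 ± 0.57, adjusted p = 0.00412). MSMO1, a methylsterol oxidase of the same pathway, rose from 112 and 102 CPM to 1006 and 373 CPM (2.69 ± 0.52, adjusted p = 0.00848). In the list of glycolysis and the hypoxia response 23 of 38 genes fell and 1, PGAM1, rose, a median -1.48 from all genes. NDRG1 stood at 29.9 and 106 CPM with pladienolide B and 3187 and 3789 CPM with DMSO (-5.68 ± 0.75, adjusted p = 0.00266) and ENO2, the neuronal enolase, at 19.9 and 58.4 CPM with pladienolide B and 501 and 689 CPM with DMSO (-3.93 ± 0.60, adjusted p = 0.00411). LDHA, lactate dehydrogenase, had 146 and 300.4 CPM against 1155 and 1575 CPM (-2.61 ± 0.45, adjusted p = 0.00583). GAPDH stood at 5183 and 3274 CPM with pladienolide B and 5434 and 4632 CPM with DMSO (-0.25 ± 0.37, adjusted p = 0.577). The call of PGAM1 was lost in other settings (adjusted p = 0.722 with library-size scaling alone, 0.237 without DMSO replicate 1 and 0.182 without DMSO replicate 2). For lipid synthesis genes the test called 1 higher without DMSO replicate 1 or 2 or with library-size scaling alone and 16 lower without DMSO replicate 1. For the glycolysis and hypoxia list the test called 2 higher without pladienolide B replicate 1 and 0 higher without DMSO replicate 1 or 2 or with library-size scaling alone.

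Nuclear genes of the respiratory chain were 6 of 30 higher and 4 lower. UQCRFS1, the Rieske protein of complex III, with 2 exons, stood at 485 and 393 CPM with pladienolide B and 37.2 and 37.8 CPM with DMSO (3.55 ± 0.27, adjusted p = 0.00132), and NDUFV2, of complex I, with 8 exons, fell from 85.5 and 89.6 CPM to 10.97 and 14.97 CPM (-2.75 ± 0.29, adjusted p = 0.00161). Mitochondrial DNA has no introns, and of its 13 mRNAs 2, ND1 and CYTB, rose and none fell. At an unadjusted p under 0.05 edgeR gave none of them as lower, and DESeq2 called 8 higher and none lower. ND1 stood at 2271 and 3125 CPM with pladienolide B and 1507 and 1011 CPM with DMSO (1.10 ± 0.36, adjusted p = 0.0442), and the calls of ND1 (adjusted p = 0.643 with library-size scaling alone, 0.053 with no filter on low counts, 0.118 without DMSO replicate 1 and 0.372 without DMSO replicate 2) and CYTB (adjusted p = 0.835 with library-size scaling alone, 0.0604 with no filter on low counts, 0.05 with all 8 libraries in 1 fit, 0.123 without DMSO replicate 1 and 0.441 without DMSO replicate 2) were lost in other settings. For mitochondrial mRNAs the test called 11 higher without pladienolide B replicate 1, 6 higher without pladienolide B replicate 2 and 0 higher without DMSO replicate 1 or 2 or with library-size scaling alone. In TPM, the deposited level per transcript length, COX1 had the highest drug mean among protein-coding genes, the only ones ranked. It stood at 5844 and 9870 TPM with pladienolide B and 11482 and 8986 TPM with DMSO. Autophagy and lysosome genes divided about as all genes did, 11 of 33 higher and 11 lower. Each is 33.3%, against 29.0% higher and 30.3% lower over all genes tested. MAP1LC3B, the marker of autophagosomes, stood at 675 and 539 CPM with pladienolide B and 159 and 135 CPM with DMSO (2.04 ± 0.27, adjusted p = 0.00268), ATG14 at 423 and 854 CPM with pladienolide B and 92.7 and 102 CPM with DMSO (2.71 ± 0.41, adjusted p = 0.00404) and the LC3 relative GABARAPL1 at 3.48 and 2.09 CPM with pladienolide B and 33.6 and 29.8 CPM with DMSO (-3.51 ± 0.37, adjusted p = 0.00168). SQSTM1, the cargo receptor p62, fell from 1490.2 and 1409.8 CPM to 421 and 412 CPM (-1.80 ± 0.27, adjusted p = 0.00349). For respiratory chain genes the test called 15 higher without pladienolide B replicate 2, 3 higher with library-size scaling alone, 12 lower without pladienolide B replicate 1, 11 lower without pladienolide B replicate 2, 2 lower without DMSO replicate 1 or 2 and 15 lower with library-size scaling alone. For autophagy and lysosome genes the test called 5 higher without DMSO replicate 1 or with library-size scaling alone and 6 higher without DMSO replicate 2.

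Ribosomal protein genes rose or did not pass the test, and the number called depends on the scaling and on single libraries. Of 78 genes 33 rose and none fell, with log2 fold changes from 0.21 to 2.25 and a median 1.37 above all genes. By edgeR at an unadjusted p under 0.05 none was lower, and DESeq2 called none lower. All 78 were higher in drug replicate 1 than in replicate 2, by a median log2 ratio of 1.32. RPS19 stood at 1839 and 708 CPM with pladienolide B and 390.3 and 312 CPM with DMSO (1.86 ± 0.51, adjusted p = 0.0263), with the call lost in other settings (adjusted p = 0.133 with library-size scaling alone and 0.0505 without DMSO replicate 2). RPLP0 stood at 2865 and 654 CPM with pladienolide B and 1114 and 656 CPM with DMSO (0.99 ± 0.72, adjusted p = 0.279). Translation factors were 17 of 36 higher and 6 lower. EIF3A, the largest subunit of eIF3, stood at 939 and 1207 CPM with pladienolide B and 165 and 132 CPM with DMSO (2.85 ± 0.31, adjusted p = 0.00165), while EIF3J, of the same complex, fell from 70.1 and 58.96 CPM to 14.5 and 13.5 CPM (-2.20 ± 0.27, adjusted p = 0.00209). EIF4E, which binds the mRNA cap, had 105 and 139 CPM against 23.1 and 23.97 CPM (2.37 ± 0.28, adjusted p = 0.00195). Proteasome genes were 12 of 31 higher and 3 lower. PSMD7 and PSMD14, a pair in the lid of the regulatory particle, changed by 2.88 ± 0.27 and 2.55 ± 0.24. For ribosomal protein genes the test called 78 higher without pladienolide B replicate 2, 2 higher without DMSO replicate 2 and 0 higher with library-size scaling alone. DESeq2 called 55 of them higher, and edgeR with all 8 libraries in 1 fit called 50. For translation factors the test called 7 higher without DMSO replicate 2, 8 higher with library-size scaling alone and 3 lower without DMSO replicate 1. For proteasome genes the test called 6 higher without DMSO replicate 1 or with library-size scaling alone, 7 higher without DMSO replicate 2, 10 lower without pladienolide B replicate 1 or 2, 0 lower without DMSO replicate 1 or 2 and 12 lower with library-size scaling alone.

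Genes of adhesion and the matrix fell or did not pass the test, and other surface genes moved both ways. Of 32 genes of integrins, laminins, collagens and adhesion none rose and 16 fell, a median -1.16 from all genes. At an unadjusted p under 0.05 edgeR gave 1 as higher and DESeq2 called 1 higher. ITGA2, a collagen receptor subunit, stood at 3.87 and 8.90 CPM with pladienolide B and 208 and 277 CPM with DMSO (-5.25 ± 0.52, adjusted p = 0.00151), and ITGA5, of the fibronectin receptor, at 6.37 and 12.7 CPM with pladienolide B and 155 and 205 CPM with DMSO (-4.23 ± 0.45, adjusted p = 0.00168). Their common beta partner ITGB1 stood at 561 and 734 CPM with pladienolide B and 700.03 and 589 CPM with DMSO (0.01 ± 0.28, adjusted p = 0.983). The intermediate filament gene VIM had 178 and 149.9 CPM against 1161 and 835 CPM (-2.61 ± 0.31, adjusted p = 0.00211), and CDH1, E-cadherin, 3.03 and 12.6 CPM against 49.4 and 54.1 CPM (-2.73 ± 0.68, adjusted p = 0.0195). The drug libraries stood apart here. Of the 32 genes 26 were lower in drug replicate 1 than in replicate 2, with a median log2 ratio of -1.21 against 0.0037 over all genes, and their summed level was 3859 and 9301 CPM with the drug against 11517 and 10776 CPM with DMSO. The part of the libraries in the result was not tested. The median of this list relative to genes of the same exon class was -0.27. Receptor tyrosine kinases, which carry growth factor signals into the cell, were 3 of 17 higher and 8 lower. Their median was -1.24 from all genes and -0.60 from genes of the same exon class. EGFR stood at 9.30 and 13.2 CPM with pladienolide B and 117 and 114 CPM with DMSO (-3.36 ± 0.31, adjusted p = 0.00137) and MET, the receptor of hepatocyte growth factor, at 25.4 and 28.8 CPM with pladienolide B and 199 and 187 CPM with DMSO (-2.83 ± 0.25, adjusted p = 0.00134). DDR2, a collagen receptor, rose from 2.22 and 1.79 CPM to 22.9 and 27.02 CPM (3.64 ± 0.32, adjusted p = 0.00134). In the YAP and TEAD list 5 of 16 rose and 8 fell. The target gene CCN1 stood at 1479 and 2517 CPM with pladienolide B and 219 and 294 CPM with DMSO (2.96 ± 0.40, adjusted p = 0.00288), whereas TEAD1, a DNA-binding partner of YAP, fell from 60.4 and 64.8 CPM to 7.35 and 12.7 CPM (-2.64 ± 0.36, adjusted p = 0.00292). FZD7, a Wnt receptor gene with 1 exon, stood at 168 and 74.1 CPM with pladienolide B and 10.2 and 12.03 CPM with DMSO (3.45 ± 0.48, adjusted p = 0.00306). It was the highest of 8 Frizzled receptor genes tested, 4 of them with 1 exon, of which 2 rose and none fell. At an unadjusted p under 0.05 edgeR gave 2 of these 8 as lower. The median of the 8, relative to genes of the same exon class, was -0.53. For adhesion genes the test called 4 higher without pladienolide B replicate 1, 1 higher without pladienolide B replicate 2 and 27 lower without pladienolide B replicate 2. For YAP and TEAD genes the test called 5 lower without DMSO replicate 2.

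**Figure D4:**
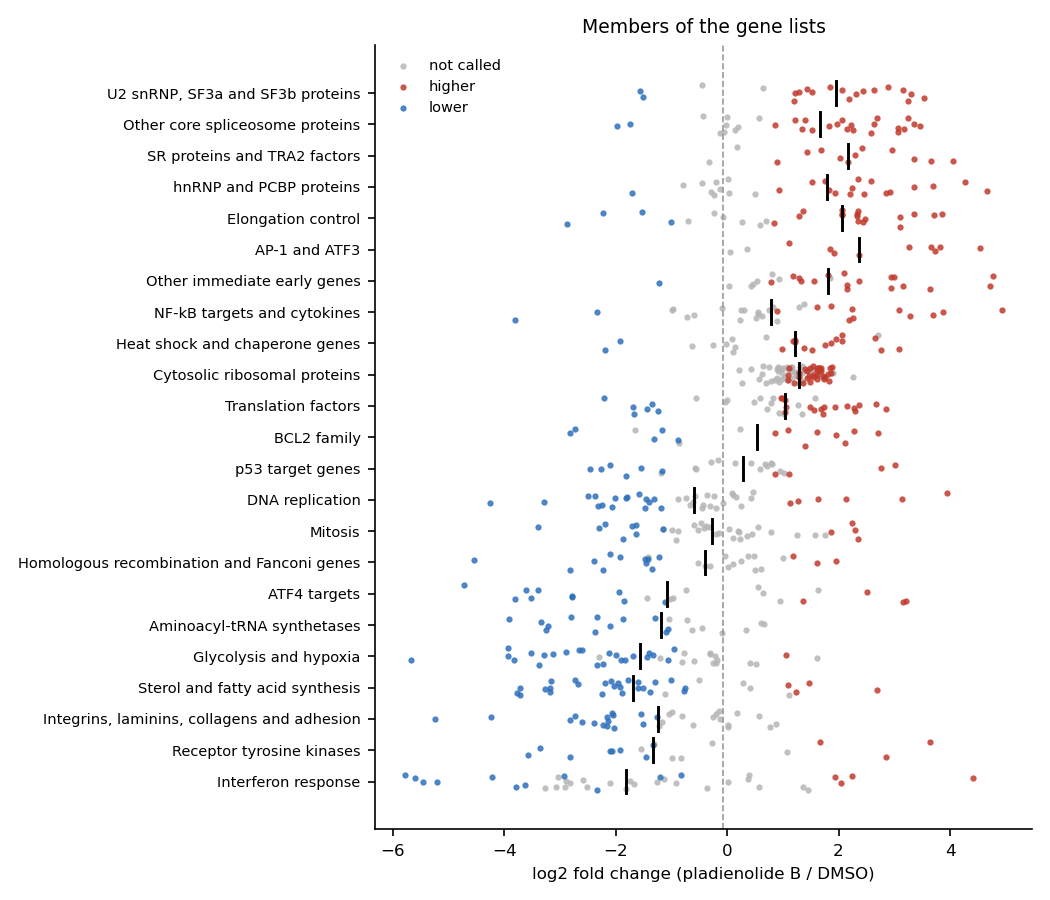
Log2 fold change (x axis) of every tested member of 23 gene lists, red where called higher, blue where called lower and grey where not called, with the list median as a black bar. The dashed line is the median of all 16263 genes tested, at -0.08.

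Interferon response genes divided by structure and by drug library. Of 37 genes 4 rose and 11 fell, a median -1.73 from all genes. The 4 that rose were IFIT1, IFIT2 and IFIT3, antiviral RNA-binding proteins with 2 exons, and OASL, with 6. IFIT2 stood at 8926 and 8053 CPM with pladienolide B and 332 and 464 CPM with DMSO (4.41 ± 0.39, adjusted p = 0.00134) and IFIT1 at 1718 and 1773 CPM with pladienolide B and 309.9 and 433 CPM with DMSO (2.23 ± 0.31, adjusted p = 0.00297). OASL had 1129 and 649 CPM against 179 and 286 CPM (1.93 ± 0.41, adjusted p = 0.0117), with the call lost in other settings (adjusted p = 0.0711 with library-size scaling alone and 0.0543 without DMSO replicate 1). Of the 6 genes with up to 3 exons 3 rose and none fell, and of the 31 with more 1 rose and 11 fell. STAT2, a transcription factor of the response, with 24 exons, stood at 15.7 and 42.6 CPM with pladienolide B and 361 and 444 CPM with DMSO (-3.79 ± 0.55, adjusted p = 0.00351). HERC6 had 1.71 and 7.51 CPM against 88.8 and 82.8 CPM (-4.22 ± 0.74, adjusted p = 0.00607). ISG15, a ubiquitin-like modifier with 2 exons, stood at 1158 and 864 CPM with pladienolide B and 834 and 1173 CPM with DMSO (0.01 ± 0.32, adjusted p = 0.979). For interferon response genes the test called 9 higher without pladienolide B replicate 1, 22 lower without pladienolide B replicate 1 or without DMSO replicate 1, 30 lower without pladienolide B replicate 2, 20 lower without DMSO replicate 2 and 18 lower with library-size scaling alone. In this list 18 genes were lower by DESeq2 and 17 by edgeR with all 8 libraries in 1 fit.

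In this list the drug libraries went apart, mostly in 1 direction. Among genes with more than 3 exons 30 of 31 were higher in drug replicate 2 than in replicate 1, by a median log2 ratio of 3.09, while the genes with up to 3 exons were level in the median (0.05). The largest differences between the drug libraries among protein-coding genes at a mean of 20 CPM or more were those of BST2, IFI27, ZNF761, HELZ2 and HSH2D. BST2, which tethers virus particles to the membrane, stood at 0.244 and 33.5 CPM with pladienolide B and 95.6 and 182 CPM with DMSO (-3.04 ± 1.70, adjusted p = 0.173), and IFI27 at 0.209 and 17.1 CPM with pladienolide B and 47.3 and 98.6 CPM with DMSO (-3.08 ± 1.57, adjusted p = 0.142). HELZ2, a helicase gene also induced by interferon, stood at 24.6 and 1531 CPM with pladienolide B and 449.6 and 556 CPM with DMSO (0.63 ± 1.5, adjusted p = 0.735), so that 1 drug library lay far below both DMSO libraries and the other above them. HSH2D stood at 0.592 and 36.1 CPM with pladienolide B and 21.6 and 33.1 CPM with DMSO (-0.57 ± 1.44, adjusted p = 0.748). ZNF761, a zinc finger gene, went the other way, at 26.1 and 0.403 CPM with pladienolide B and 28.7 and 30.7 CPM with DMSO (-1.17 ± 1.43, adjusted p = 0.507). Of 6840 such genes 19 had a log2 ratio beyond 4 between the drug libraries, and 18 of these were higher in replicate 2. For such genes the groups' means and calls rest on which drug library is taken, and the part of the libraries themselves in this difference was not tested.

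**Figure D5:**
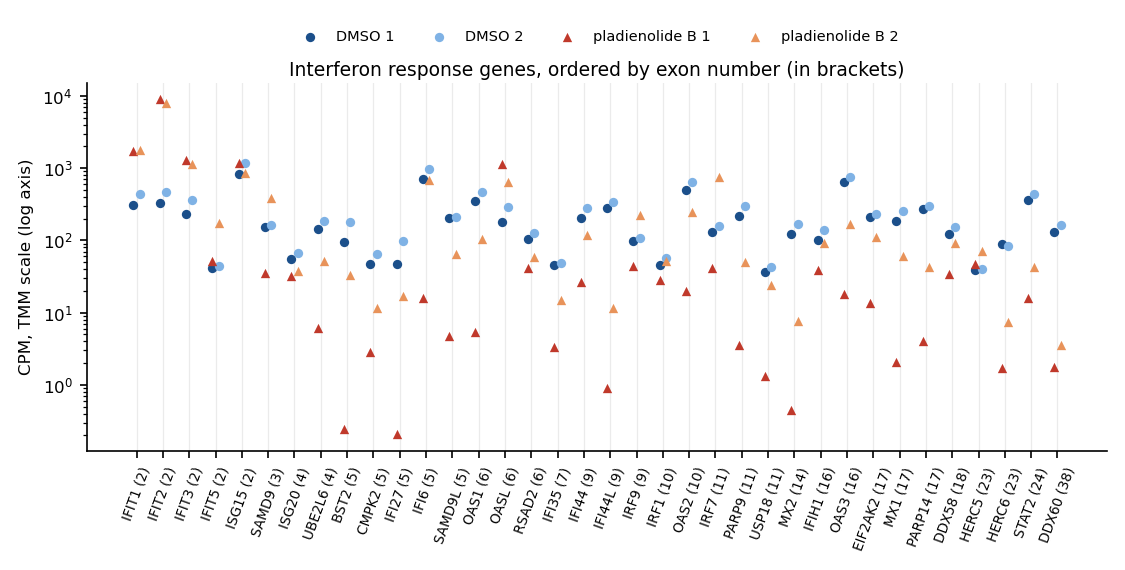
Levels of 36 of the 37 tested interferon response genes in the 4 libraries, in CPM on a log axis, ordered by exon number (in brackets). IFIT1, IFIT2 and IFIT3 on the left lie above DMSO in both drug libraries, while among genes with over 3 exons drug replicate 1 lies below replicate 2 in 29 of the 30 drawn.

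Some genes named here have exons of their canonical transcript that share bases with an exon of another gene of the table, so that reads there could have been counted for either, and their values are uncertain to that extent. On the same strand these were HSPE1 (with HSPE1-MOB4), NOP56 (with MIR1292), PCBP2 (with PCBP2-OT1), RBBP8 (with MIR4741), RBMXL1 (with KYAT3), SNHG15 (with SNORA9) and UTP14C (with ALG11). On the opposite strand they were EIF3A (with NANOS1), EIF3J (with SPG11), FANCL (with VRK2), HEXIM1 (with LOC112268203), PCBP2 (with MAP3K12), PCF11 (with LOC100506282 and PCF11-AS1), SQSTM1 (with MRNIP), SREBF1 (with RAI1) and VIM (with VIM-AS1), and the sources used here do not state whether the counting used the strand.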

How the data were processed

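The table of the series was deposited as 1 sheet with raw read counts and TPM per gene and library, both computed by the authors. Its fold change, a signed score in which a decrease is minus the inverse ratio, and its Benjamini-Hochberg adjusted p-value are the authors' own, from a test that no source names. Trimmomatic 0.38, HISAT2 2.10, Bowtie2 2.3.5.1 and edgeR are named, without roles, per the submitters' processing notes, with build GRCh38. No source states the counting program, its annotation or its use of strand.

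From the counts of the 4 libraries alone, genes were kept by filterByExpr (minimum count 10), scaled by TMM and tested with the robust quasi-likelihood F-test of edgeR 4.0.16 in R 4.3.3, with Benjamini-Hochberg adjustment over all 16263 genes and a threshold of 0.05. The fit had 2 residual degrees of freedom. The code was also run on simulated counts with few changed genes and the same spread in both groups. These data are unlike that setting, so the run says nothing about error rates here. Standard errors are the size of the log2 fold change divided by the square root of F. CPM use TMM library sizes. DESeq2 1.42.0, other scalings and filters, a replicate block, all 8 libraries in 1 fit and leaving out each library were alternatives. Replicates differed by more than sampling noise (chi-square per degree of freedom 308 with the drug and 75.2 with DMSO), so each library counted as 1 sample.

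Exon numbers, intron lengths and hosts come from GENCODE v44 (GRCh38, 15525 of 17010 genes matched) and promoters from RefSeq GRCh38.p14. Genes were named where they were the 10 largest called changes in each direction (mean of at least 20 CPM, groups not overlapping, no overlapping gene), the 5 largest differences between the drug libraries, the 2 largest called changes of an RNA class, marked members of 45 gene lists, or their largest called changes. Hosts, snoRNAs other than SNORD33, homologue pairs and further list members were chosen after their values were seen. Some genes that this rule names are not reported here. The gene lists and the comparison were chosen with earlier results of these data known. A count over 1 gene cannot separate spliced from unspliced RNA, and in bulk RNA fewer cells and less RNA per cell cannot be told apart.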

Additional observations from a re-analysis of the deposited data

How the results depend on the processing

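Over all genes the number called was 6323 to 12957 when 1 library was left out, with 3066 to 5991 higher and 3257 to 6966 lower, and the lowest numbers came without a DMSO library. With library-size scaling alone 2844 genes were higher and 7597 lower, so that 27.2% of the calls were higher against 48.9%, and 130 called genes changed sign. No gene called in the text's fit was called in the opposite direction under any of the 11 alternatives run. Across all genes the median change (-0.08 on the log2 scale) was 0.040 with RLE scaling, -0.99 with library-size scaling alone and -0.21 to -0.054 without 1 library. The difference between genes with 1 exon and with several was 1.83 to 2.19 without 1 library. No setting turned it. The replicate numbers could not be shown to pair the libraries, since there are only 2 numbers, and the correlation of same-numbered libraries' deviations was 0.124. With the replicate block 10246 genes were called, 4876 higher and 5370 lower, and 97.1% of the calls were kept.

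Among the genes named in the text, directions turned only for ones that were not called. COX1 (0.55) was -0.35 with library-size scaling alone, TAF7L (0.58) -0.30, ISG15 (0.01) -0.91, ITGB1 (0.01) -0.89 and HELZ2 (0.63) -0.21. HELZ2 was -1.36 with the replicate block. Without a filter on low counts ISG15 was -0.055 and ITGB1 -0.056, and with all 8 libraries in 1 fit -0.031 and -0.024. GAS5 (-0.06) was 0.059 with RLE scaling and 0.019 with the CPM filter, and RBMXL1 (-0.08) 0.041 and 0.0052. Without 1 library the ranges were -4.46 to 1.60 for HELZ2, -5.63 to 0.40 for HSH2D, -0.44 to 1.59 for RPLP0, -0.40 to 1.12 for TAF7L, -1.03 to 0.0061 for FAM50B, -0.23 to 0.26 for ISG15, -0.30 to 0.18 for ITGB1 and -0.44 to 0.11 for RBMXL1. The cause was not tested. With 2 libraries a group, the fit has 2 residual degrees of freedom, and a gene with few counts in the drug libraries, where the median gene had 227 and 223.5 counts, is known less well.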

Other observations

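Protein-coding genes under 1 CPM in DMSO were followed by their distance from the next annotated gene upstream on the same strand. Of 491 such genes within 20 kb of it, 223 rose and 28 fell, with a median log2 fold change of 1.48. Of 350 that lay further away from it, 99 rose and 32 fell, with a median of 0.37. This order was not particular to genes under 1 CPM. Over all protein-coding genes the median was -0.40 at 20 to 100 kb and -0.81 over 100 kb. It was -0.05 at 5 to 20 kb, 0.02 at 1 to 5 kb, -0.06 under 1 kb and -0.04 where the genes overlapped. Genes with no such gene upstream were left out. Genes are not replicates, and the split was chosen after results of these data were known, so the difference carries no test.

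Genes annotated as pseudogenes rose in 290 of 697 cases and fell in 60, with a median log2 fold change of 1.27. Those annotated as transcribed pseudogenes rose in 114 of 404 cases and fell in 96, with a median of -0.09. Transcripts of higher genes had a median GC content of 49.99%, those of lower genes 46.5% and those not called 50.4%.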
